A study of Neurospora crassa with 24 samples.

Results

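Transcripts of 10 genes that build the cytoskeleton or move along it were followed through conidial germination in Neurospora crassa, out of 9730 genes listed on each medium. The set is given by locus identifier, with no threshold on a measured value: the actin gene act (NCU04173), the fimbrin gene fim (NCU03992), the tropomyosin gene tpm (NCU01204), the myosin genes myo-1 (NCU02111) and myo-5 (NCU01440), the beta-tubulin gene tub-2 (NCU04054, listed as Bml), the alpha-tubulin genes tba-1 (NCU09132) and tba-2 (NCU09468), the kinesin gene kin-1 (NCU09730) and ro-1 (NCU06976), which encodes the heavy chain of cytoplasmic dynein. The gene reference gives a symbol for 8 of them, while myo-1 and myo-5 are listed there by locus only. All 10 had levels with intervals above 0 at every stage on both media, so a filter on low values removed none. They lie on chromosomes I, II, IV, V and VI of assembly NC12, with act at V:5086770-5089247, tub-2 at VI:2582865-2585515, tba-1 at I:5446124-5449418 and tba-2 at II:4376995-4380245.

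The 24 libraries came from macroconidia of the mat A strain FGSC2489, plated on cellophane over Bird medium (BM) or maple sap medium (MSM) and kept under constant white light. BM is a synthetic medium, and MSM is maple sap set with agar, with nitrogen below detection. RNA was taken at 15, 120, 240 and 360 min, called stages 1 to 4, with 3 replicates for each of the 8 groups. The times were set by the morphology of spores on BM, from fresh conidia through germ tubes to the first branches, and were used unchanged on MSM, so a difference between the media cannot be told apart from a difference in timing. All material of a membrane was extracted together, so fewer cells with a transcript and less transcript per cell cannot be told apart.

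Actin filaments and microtubules carry the polar growth of a fungal hypha. Actin polymerizes into patches at sites of endocytosis, where fimbrin bundles filaments and class I myosin acts, and into cables that tropomyosin coats and along which class V myosin carries secretory vesicles to the tip. Microtubules are polymers of alpha- and beta-tubulin, on which conventional kinesin moves cargo toward the plus ends and dynein toward the minus ends. In N. crassa the ropy (ro) mutants, named for their twisted hyphae, led to genes of dynein and of its activator dynactin.

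Each deposited level is a ratio that sets a gene's lowest stage on a medium to 1, estimated by the authors from the 3 replicates together, with a 95% interval. Stages of one medium can therefore be compared by level, but not genes and not media. The half-widths of the intervals of these genes were between 0.359% and 1.91% of the level on BM and between 0.224% and 1.83% on MSM. Read totals and values of single libraries were not analysed here, and how far replicates varied beyond these intervals is not known. Changes between stages are given in log2 as the change ± SE, measured from the median gene of that comparison, since the median gene itself shifted on BM. The median gene moved by -0.37, 0.42 and -0.30 in the consecutive steps on BM and by -0.30 over the whole course, against 0.020, -0.037, 0.15 and 0.13 on MSM. A gene was called higher or lower by a two-sided z test with Bonferroni adjustment over all genes tested, at an adjusted p below 0.01. The intervals are narrow and most genes were called in most comparisons, so counts are read against the share of all genes called. That share is an imperfect background, because the SEs of these 10 genes were below the median SE of all genes in every comparison. In the first step on BM they were 0.0041 to 0.017, against a median of 0.032. For the whole-course difference between media they were 0.0060 to 0.021, against 0.041. A change of a given size was thus called more readily in these genes.

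From the first stage to the last, actin and the genes of fimbrin and tropomyosin gained transcript on both media, the alpha-tubulin genes parted, beta-tubulin stayed near the median gene and kinesin fell. On BM 4 of the 10 genes were higher at stage 4 than at stage 1 (act, tba-1, fim and tpm) and 6 were lower, where 39.6% of all genes tested were called higher and 38.4% lower. On MSM 6 were higher (the same 4 with myo-1 and myo-5) and 2 were lower (tba-2 and kin-1), against 41.7% and 40.4% of all genes, and tub-2 and ro-1 were not called. Of the 10 genes 6 were called in the same direction on both media and 2 in opposite directions, the myosin genes. As deposited no called direction turned, but tub-2 and ro-1 were then called higher on MSM (0.15 and 0.15) and lower on BM (-0.36 and -0.62), so that 4 genes were called in opposite directions. How many of all genes went the same or opposite ways on both media was not counted, so these counts have no background. The median change of the 10 genes was -0.16 on BM and 1.00 on MSM, and that of all genes is 0 by construction.

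**Figure D1:**
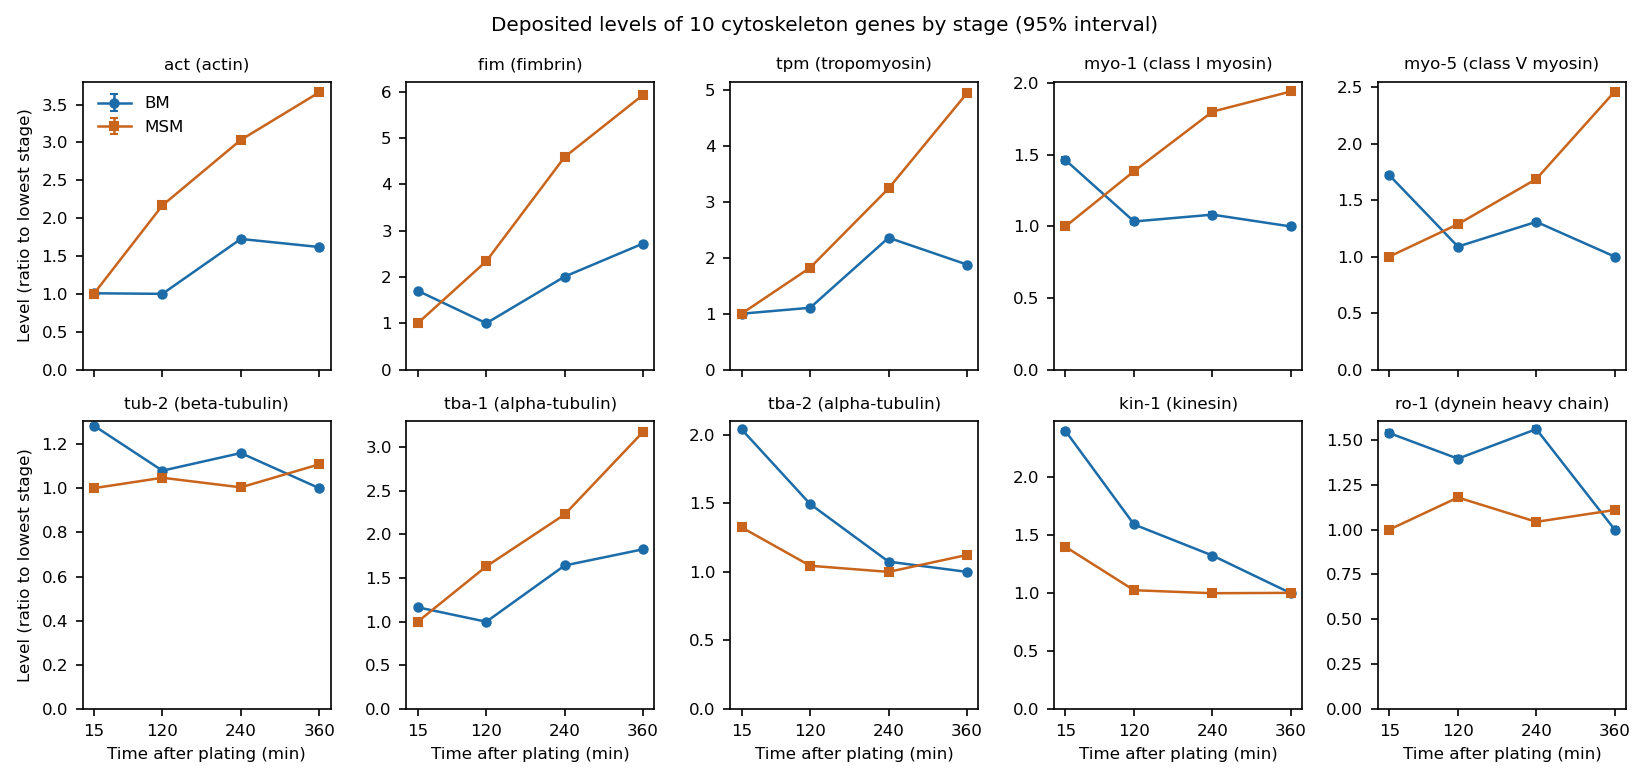
Deposited level of each gene (vertical axis, ratio to the gene's lowest stage on that medium, from 0) against time after plating in minutes, for BM (circles) and MSM (squares), with bars for the 95% interval. On MSM act, fim, tpm, tba-1, myo-1 and myo-5 climb at every stage, while on BM both myosin genes are highest at 15 min, and heights cannot be compared between the media or between panels.

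Actin transcript rose in every step on MSM, with the largest rise in the first. The levels of act on BM were 1.01, 1, 1.73 and 1.62 at stages 1 to 4, and on MSM 1, 2.17, 3.03 and 3.66. On BM the intervals of stages 1 and 2 overlapped and those of the later stages lay clear above them, while on MSM all 4 were separate and in order of time. Over the whole course act gained 0.98 ± 0.0046 on BM and 1.74 ± 0.0044 on MSM, higher than 81.2% and 85.6% of the genes tested. The first step on MSM alone brought 1.10 ± 0.0050, a 2.14-fold increase over the median gene. On BM that step was 0.36 ± 0.0052 relative to the median gene but -0.011 as deposited, and the last step there was 0.20 ± 0.0038 but -0.092 as deposited.

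The filament-bundling gene fim made the largest move of the 10 on MSM. Like myo-1 and myo-5, it took opposite directions on the media in the first step. Its levels on BM were 1.70, 1, 2.01 and 2.72, with a dip at stage 2, and on MSM 1, 2.34, 4.59 and 5.93, with a climb at every stage. From stage 1 to 2 fim lost transcript on BM (-0.40 ± 0.017) and gained it on MSM (1.21 ± 0.016). It then rose on BM by 0.59 ± 0.017 and 0.74 ± 0.011, and the last of these lay above 92.9% of all genes in that step. Over the whole course fim gained 0.98 ± 0.012 on BM and 2.44 ± 0.014 on MSM, a 5.43-fold increase over the median gene there.

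Tropomyosin transcript rose in the first and second steps on both media, and in the last on MSM only. The levels of tpm were 1, 1.11, 2.36 and 1.88 on BM, against 1, 1.82, 3.24 and 4.95 on MSM. The highest stage was thus the third on BM and the last on MSM. The steps on BM were 0.52 ± 0.0084, 0.68 ± 0.0067 and -0.032 ± 0.0050, and on MSM 0.85 ± 0.0061, 0.87 ± 0.0043 and 0.46 ± 0.0030. The whole-course gain of tpm was the largest of the 10 genes on BM, 1.21 ± 0.0071, and came second to that of fim on MSM, 2.18 ± 0.0053.

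Over the whole course the myosin genes fell on BM and rose on MSM. For myo-1, a class I myosin, the levels were 1.46, 1.03, 1.08 and 1 on BM, against 1, 1.39, 1.80 and 1.94 on MSM. For myo-5, a class V myosin, they were 1.72, 1.09, 1.31 and 1 on BM, against 1, 1.29, 1.69 and 2.46 on MSM. Both were highest in the spore on BM and lowest in the spore on MSM, with no overlap between the intervals of the first stage and any other. Over the whole course myo-1 changed by -0.25 ± 0.015 on BM and 0.83 ± 0.014 on MSM, and myo-5 by -0.48 ± 0.011 and 1.17 ± 0.0092. In the first step on BM the change was -0.13 ± 0.015 for myo-1 and -0.29 ± 0.011 for myo-5, or -0.50 and -0.66 as deposited. In the last step on BM myo-1 was at 0.18 ± 0.016 relative to the median gene and -0.11 as deposited. On MSM the second steps were alike, 0.42 ± 0.013 and 0.43 ± 0.0090, and the genes parted in the last step, where myo-5 rose by 0.40 ± 0.0072 and myo-1 was not called at -0.041 ± 0.011.

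Beta-tubulin was among the steadiest transcripts of the genome. The levels of tub-2 were 1.28, 1.08, 1.16 and 1 on BM, against 1, 1.05, 1.00 and 1.11 on MSM, where the intervals of stages 1 and 3 overlapped. From stage 1 to 4 it changed by -0.061 ± 0.0044 on BM and 0.019 ± 0.0041 on MSM, the latter not called. Its range over the 4 stages, relative to the median gene, was 0.29 on BM and 0.051 on MSM, where the median of this range over all genes was 0.99 and 1.28. By that range tub-2 was number 4 from the steadiest of 8855 genes on MSM and number 640 of 8773 on BM, and as deposited it was number 45 and number 235. Taking the larger range of both media, it was number 37 of 8676 genes.

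The alpha-tubulin genes moved apart on both media. The levels of tba-1 were 1.17, 1, 1.64 and 1.83 on BM, against 1, 1.63, 2.23 and 3.17 on MSM. Those of tba-2 were 2.04, 1.49, 1.07 and 1 on BM, against 1.32, 1.04, 1 and 1.12 on MSM. The former was highest at stage 4 on both media, and the latter was highest in the spore on both. Over the whole course tba-1 rose by 0.95 ± 0.0073 on BM and 1.54 ± 0.0075 on MSM, while tba-2 fell by 0.73 ± 0.0055 and 0.37 ± 0.0052. Relative to the median gene the fall of tba-2 on BM was mostly in the middle step, at -0.89 ± 0.0061, while as deposited it was split between the first and the middle step (-0.45 and -0.48). On MSM the fall came in the first step, at -0.36 ± 0.0054. The later steps of tba-2 on MSM were not called, at -0.026 ± 0.0060 and 0.018 ± 0.0058, but were called as deposited, at -0.063 and 0.17. The authors tallied only reads with a single place in the genome, so reads that fit either paralog would be missing from both, and their share was not analysed here.

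Kinesin fell on both media. The levels of kin-1 were 2.40, 1.59, 1.33 and 1 on BM, against 1.40, 1.03, 1 and 1.00 on MSM, where the intervals of stages 3 and 4 overlapped. The level fell at every stage on BM, while on MSM nearly all of the loss in level came by 120 min. Relative to the median gene kin-1 fell by 0.96 ± 0.0094 over the course on BM and by 0.61 ± 0.0079 on MSM, and the first and last steps on MSM were -0.47 ± 0.0078 and -0.15 ± 0.0090, the last 0.0044 as deposited. Dynein moved less. The levels of ro-1 were 1.54, 1.40, 1.56 and 1 on BM, against 1, 1.18, 1.04 and 1.11 on MSM, with overlapping intervals at stages 1 and 3 on BM. The largest step of ro-1 was the last on BM, -0.34 ± 0.012, and its whole-course change was -0.32 ± 0.012 on BM and 0.021 ± 0.011 on MSM, the latter not called. By its range on MSM, 0.21, ro-1 was number 159 from the steadiest of 8855 genes.

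**Figure D2:**
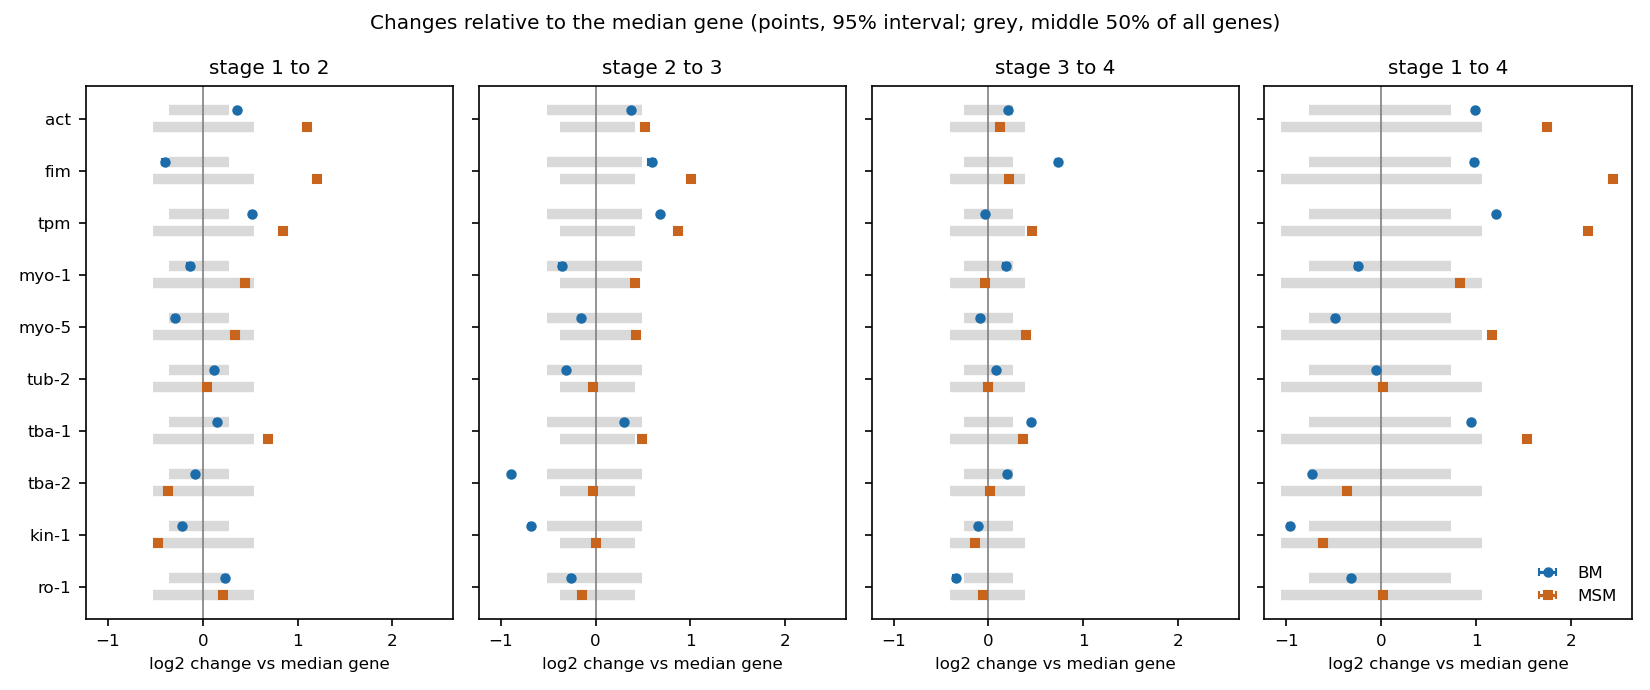
Log2 change relative to the median gene (horizontal axis) for each of the 10 genes (rows), in the 3 steps and from stage 1 to 4, on BM (circles) and MSM (squares), with 95% intervals, where grey bars span the middle 50% of all genes tested on that medium. Over the whole course act, fim, tpm and tba-1 lie right of the grey bars on both media, kin-1 on BM lies left of them and myo-5 on MSM right of them.

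In the first step 5 of the 10 genes were called higher (act, tub-2, tba-1, ro-1 and tpm) and 5 lower (tba-2, kin-1, fim, myo-1 and myo-5) on BM, where 30.1% and 31.1% of all genes were called. The step was small for these genes, at a median size of 0.23, against 0.31 for all genes. On MSM 8 were higher (all but tba-2 and kin-1) and 2 lower, with 36.2% and 36.0% of all genes called, and act and fim gained more than 2-fold over the median gene. From stage 2 to 3 on BM 4 were higher and 6 lower, against 35.1% and 35.6%. Those called higher were act, tba-1, fim and tpm, and of the others (tub-2, tba-2, kin-1, ro-1, myo-1 and myo-5) the falls of tba-2 and kin-1 (-0.68 ± 0.0095) were the largest. On MSM that step had 6 higher and 2 lower genes, against 34.4% and 32.0%, led by fim (1.01 ± 0.0099) and tpm before act, tba-1, myo-1 and myo-5, with tub-2 and ro-1 lower, and tba-2 and kin-1 not called. From stage 3 to 4 on BM 6 were higher (act, tub-2, tba-1, tba-2, fim and myo-1) and 4 lower (kin-1, ro-1, tpm and myo-5), against 31.1% and 27.1%. On MSM 5 were higher (act, tba-1, fim, tpm and myo-5) and 2 lower (kin-1 and ro-1), against 34.1% and 33.7%, and tub-2, tba-2 and myo-1 were not called. As deposited, several of the smaller steps changed sign: act, tub-2, tba-1 and ro-1 in the first on BM, tub-2, ro-1, myo-1 and myo-5 in the second, act, tub-2, tba-2 and myo-1 in the last, and tub-2, kin-1, ro-1 and myo-1 in the last on MSM. Counts by step therefore describe position relative to the median gene.

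The ratio of a pair of genes does not depend on the scale of a stage, since any factor common to all genes of a stage cancels. By this measure the alpha-tubulin genes parted on both media, but at different times. The ratio of tba-1 to tba-2 rose 3.20-fold on BM and 3.74-fold on MSM from stage 1 to 4, or by 1.68 (95% interval 1.66 to 1.70) and 1.90 (1.89 to 1.92) in log2. The first step held 1.05 of this on MSM and 0.23 on BM, with an interval of 0.80 to 0.85 for the difference. The middle step held 1.19 on BM and 0.51 on MSM. The ratio of act to tub-2 rose 2.06-fold on BM and 3.31-fold on MSM, with its largest step first on MSM (1.05) and in the middle on BM (0.68). In the last step it rose by 0.12 on BM and 0.13 on MSM, and the interval of the difference, -0.0069 to 0.024, spans 0.

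**Figure D3:**
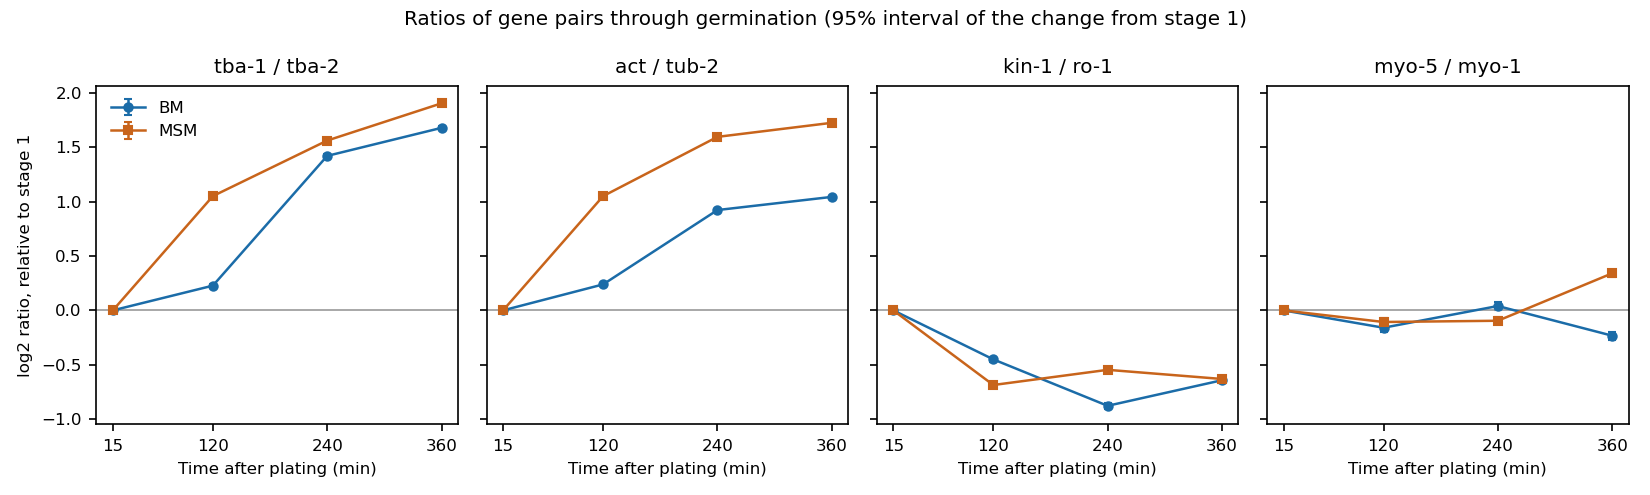
Log2 ratio of the levels of 4 pairs of genes relative to stage 1 (vertical axis) against time after plating in minutes, for BM (circles) and MSM (squares), with bars for the 95% interval of the change from stage 1. The tba-1 to tba-2 and act to tub-2 ratios rise on both media and earlier on MSM, the kin-1 to ro-1 ratio ends lower on both, and the myo-5 to myo-1 ratio ends below its start on BM and above it on MSM.

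Among the other pairs, beta-tubulin stayed between its alpha-tubulin partners. Relative to tub-2 over the whole course, tba-1 gained 1.01 ± 0.0086 on BM and 1.52 ± 0.0086 on MSM, while tba-2 changed by -0.67 ± 0.0071 on BM and -0.39 ± 0.0066 on MSM. Against tropomyosin, actin changed by -0.23 ± 0.0085 on BM and -0.43 ± 0.0068 on MSM. Against fimbrin the difference on BM was 0.0068 with an interval of -0.019 to 0.032, which spans 0, and on MSM -0.70 ± 0.015. The kin-1 to ro-1 ratio changed by -0.64 ± 0.015 on BM and -0.63 ± 0.014 on MSM, a difference of 0.012 with an interval of -0.029 to 0.052. The myo-5 to myo-1 ratio changed by -0.23 ± 0.019 on BM and 0.34 ± 0.017 on MSM. In all 8 pairs were compared, picked by role, with intervals and no p.

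The change from stage 1 to 4 was higher on MSM than on BM for all 10 genes, against 40.0% higher and 35.1% lower over the genome, or 75.1% in either direction. The median difference of all genes was 0.089, so tub-2, the smallest of the 10 at 0.079 ± 0.0060, lay below it. The difference was largest for myo-5 (1.65 ± 0.014) and fim (1.46 ± 0.019), then myo-1 (1.08 ± 0.021), tpm (0.97 ± 0.0088) and act (0.76 ± 0.0063). As deposited all 10 differences were positive too, but that scale leans toward positive values. Its genome shares were 51.1% higher and 24.6% lower, and the median gene itself moved by 0.13 on MSM and -0.30 on BM. In the first step 9 of the 10 genes differed, 6 higher (act, tba-1, fim, tpm, myo-1 and myo-5) and 3 lower on MSM, against 34.6% and 31.6% of all genes (66.2% in either direction), and fim led at 1.60 ± 0.024, while the lower ones (tub-2, tba-2 and kin-1) turned positive as deposited. In the middle step all 10 were higher on MSM (against 32.8% of all genes called higher, 33.8% lower and 66.5% in either direction), led by tba-2 at 0.87 ± 0.0086 and myo-1 at 0.77 ± 0.021, but as deposited 6 of these turned negative. In the last step 9 differed, 3 higher (ro-1, tpm and myo-5) and 6 lower (act, tub-2, tba-1, tba-2, fim and myo-1) on MSM, against 26.6% and 34.3% of all genes (60.9% in either direction), and as deposited 5 of the lower ones turned positive, all but fim. The differences of myo-5 and tpm in the last step, 0.49 ± 0.014 and 0.49 ± 0.0059, kept their sign on both scales. As deposited, 55.2, 16.6 and 55.2% of all genes were higher on MSM in the 3 steps, and 15.7, 54.6 and 15.6% lower.

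**Figure D4:**
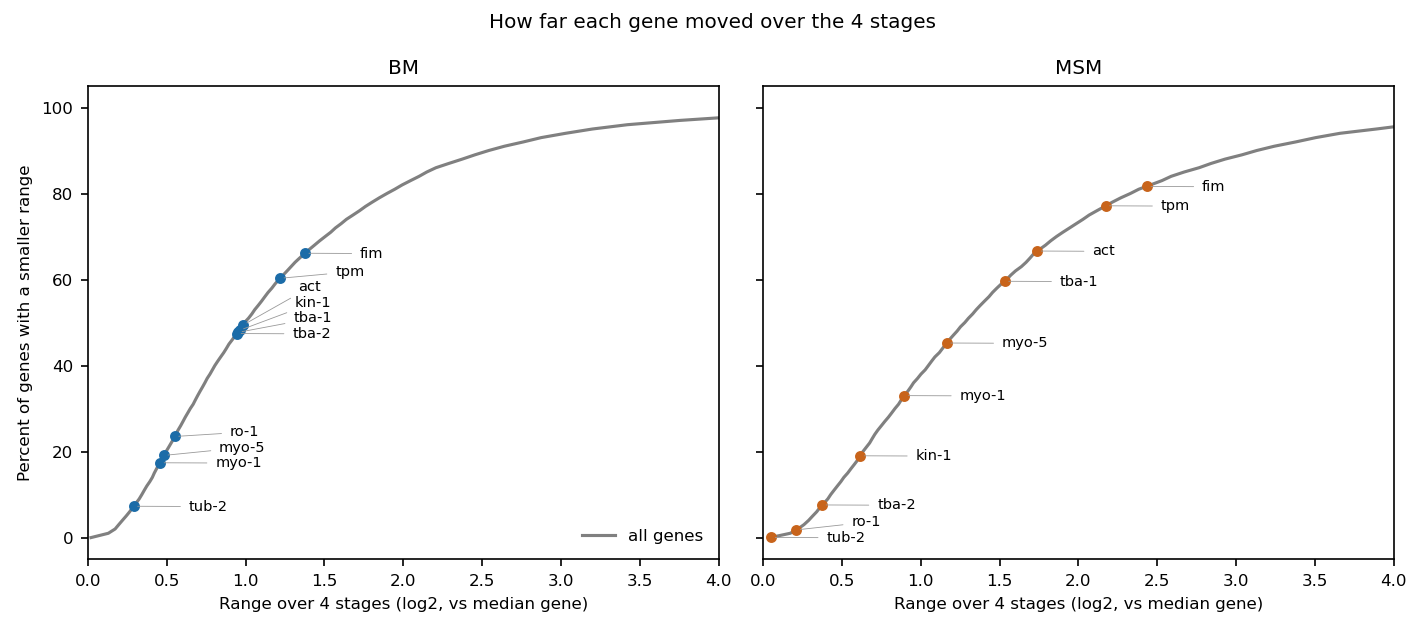
Percent of genes with a smaller range over the 4 stages (vertical axis) against that range in log2 relative to the median gene (horizontal axis, which ends at 4), for all genes (grey line) and the 10 genes (points), on BM and MSM. The beta-tubulin gene tub-2 lies at the low end on both media, and on MSM act, tpm and fim lie at 66.6%, 77.1% and 81.6%.

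Actin and beta-tubulin, both common choices as reference transcripts, differed in how far they moved. The range of act was 0.98 on BM and 1.74 on MSM, larger than that of 49.4% and 66.6% of all genes, and that of tub-2 was larger than 7.28% and 0.0339%. Likeness of course was computed as the Euclidean distance over the 6 centred steps, 3 on each medium, among 1091 genes with a symbol. The genes nearest to act were sec53 (distance 0.21), mek-2 (0.26) and dbf2 (0.33), and those nearest to tub-2 were pod-4 (0.25), stk-10 (0.29) and nrc-1 (0.29). Among all 8675 other genes, tba-1 was number 122 in nearness to act, tpm number 258 and fim number 1122. The closest pair of the 10 was kin-1 and tba-2 at 0.44, where kin-1 was number 29 of 8675 in nearness to tba-2. The next closest was tub-2 and ro-1 at 0.49.

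The genes of actin depolymerizing factor and of the Arp complex were higher at stage 4 than at stage 1 on both media, like actin. Relative to the median gene, the genes of a formin and of a Wiskott-Aldrich-like regulator (NCU01862) were not. The study's annotation in the part used here, which covers only some of the genome, names 13 further genes on the actin side. From stage 1 to 4, 7 were higher and 3 lower on BM and 8 higher and 2 lower on MSM, with medians of 0.41 and 1.14. Of all genes 39.6% were higher and 38.4% lower on BM, and 41.7% and 40.4% on MSM. The gene of actin depolymerizing factor (NCU01587), which severs filaments, rose by 2.28 ± 0.012 on BM and 2.90 ± 0.010 on MSM. Of the Arp complex that branches filaments, arp-3 rose by 1.03 ± 0.017 on BM and 2.07 ± 0.016 on MSM, and NCU01918, annotated as another subunit, by 1.34 ± 0.018 and 2.74 ± 0.015. The formin gene bni1, whose product assembles unbranched filaments, was at -0.72 ± 0.012 on BM and was not called at -0.019 ± 0.0094 on MSM. As deposited bni1 was at 0.11 on MSM. Of the genes annotated as Wiskott-Aldrich syndrome proteins, activators of the Arp complex, NCU01862 fell by 4.11 ± 0.039 and 2.01 ± 0.025, and NCU01567 was too imprecise to be called (-1.53 ± 0.68 and -2.43 ± 0.90).

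Of 8 further genes annotated as myosin-like, 4 were higher and 2 lower on BM and 5 higher and 2 lower on MSM over the whole course, with medians of 0.13 and 0.90. Of all genes 39.6% and 41.7% were higher on BM and MSM, and 38.4% and 40.4% lower. NCU01817, annotated like myo-5 as a class V heavy chain, rose by 1.19 ± 0.028 on BM and 1.60 ± 0.026 on MSM, whereas myo-5 fell on BM. NCU01327, annotated as a class II heavy chain, rose by 0.70 ± 0.026 and 1.13 ± 0.024. The listed gene with the symbol myo2 (NCU00551) was not called on BM, at -0.052 ± 0.016 or -0.35 as deposited. On MSM myo2 rose by 0.87 ± 0.013. The coiled-coil gene NCU01273 fell by 1.02 ± 0.013 and 1.21 ± 0.013, and NCU00171, annotated as a regulatory light chain, rose by 0.89 ± 0.028 and 1.14 ± 0.021.

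Genes of the microtubule side and of dynactin went in both directions. Of 7 genes annotated on the microtubule side, 3 were higher and 3 lower on BM and 4 higher and 3 lower on MSM over the whole course, with medians of 0.088 and 0.21, against genome shares of 39.6% higher and 38.4% lower on BM and 41.7% and 40.4% on MSM. The autophagy gene atg-8, annotated as a microtubule-associated anchor, was at -1.15 ± 0.014 on BM and 1.72 ± 0.0069 on MSM. The microtubule-binding gene NCU00243 rose by 0.69 ± 0.011 and 1.22 ± 0.010, and NCU00218, annotated as a small GTP-binding protein, was at 0.98 ± 0.041 and -0.43 ± 0.040. Of 16 ropy and dynein-related symbols 8 were found in the reference, with 4 higher and 1 lower on BM and 3 higher and 3 lower on MSM, and medians of 0.11 and 0.077, against the same shares. The balance on BM holds only relative to the median gene. As deposited on BM, ro-2, ro-4 and ro-6 were at 0.53, 0.095 and 0.034. There ro-3, ro-7, ro-10, ro-11 and ro-12 were at -0.80, -0.047, -0.33, -0.34 and -0.40. Of the dynactin genes, ro-2, which also counts among the 7, rose by 0.83 ± 0.027 and 0.21 ± 0.031, ro-3 fell by 0.50 ± 0.018 and 0.99 ± 0.017, and ro-4 was at 0.39 ± 0.015 and -0.17 ± 0.015. The gene ro-11 was not called on BM (-0.042 ± 0.014) and rose by 0.54 ± 0.014 on MSM.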

How the data were processed

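RNA of conidia and germlings was sequenced in 24 libraries, 3 for each of 4 stages on 2 media. The authors trimmed the reads, aligned them to the N. crassa OR74A genome with TopHat2 2.0.12, used HTSeq 0.6.1p1 to tally, over exons, reads with a single place in the genome, and pooled the 3 replicates of a stage in LOX. The deposited values are ratios to the gene's lowest stage on a medium, with distances to the 95% bounds. Columns numbered 1 to 4 were taken as stages in the order of sampling times. Gene symbols and coordinates come from RefSeq (assembly NC12).

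The SE of a log2 level was the width of its interval divided by that of a standard normal 95% interval, and a level entered only with a lower bound above 0. Stages were taken as independent. Changes were centred on the median gene, and two-sided z tests were adjusted by Bonferroni over all genes tested, between 8773 and 9026 in a comparison. The genes and lists were chosen with earlier results of these data known.

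All 10 genes are named in every comparison, with a value or within a count. Of each list up to 4 genes with the largest whole-course change on either medium are named, plus the annotated genes of cofilin, of the Arp complex and of formin, and for act and tub-2 the 3 nearest genes with a symbol. Also named are myo2 and every ropy gene found. Symbols were matched without regard to hyphens, and mip-1 was left out because its role is not sure. Lists by annotation come from a part of the study's annotation. Counts within all lists are relative to the median gene. A further list is not reported here.

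The alternatives were changes as deposited, the median of genes usable at all stages, an SE multiplied by 3, Benjamini-Hochberg adjustment below 0.05, a minimum of 2-fold, and only genes with an SE under 0.25. Adding 0.1 in quadrature to the SE of each change was chosen after seeing the data. A difference between media thus received it for both of its changes. Computation used SciPy 1.17.1, pandas 2.3.3 and numpy 2.4.6 under Python 3.11.15, and plots were drawn with matplotlib 3.10.9.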

Additional observations from a re-analysis of the deposited data

Results flagged for a closer look

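The 3 steps and the whole course were compared between the media, each change taken from its median gene, and the z test of the difference called 38 of 40. Of all genes 66.2%, 66.5% and 60.9% were called in the 3 steps and 75.1% over the whole course. Values are in log2 and positive where the change was higher on MSM. For act the difference was 0.74 from stage 1 to 2, 0.15 from stage 2 to 3, -0.083 from stage 3 to 4 and 0.76 from stage 1 to 4. That of fim was 1.60 from stage 1 to 2, 0.42 from stage 2 to 3, -0.52 from stage 3 to 4 and 1.46 from stage 1 to 4. For tpm the difference was 0.33 from stage 1 to 2, 0.19 from stage 2 to 3, 0.49 from stage 3 to 4 and 0.97 from stage 1 to 4. That of myo-1 was 0.58 from stage 1 to 2, 0.77 from stage 2 to 3, -0.22 from stage 3 to 4 and 1.08 from stage 1 to 4. For myo-5 the difference was 0.63 from stage 1 to 2, 0.58 from stage 2 to 3, 0.49 from stage 3 to 4 and 1.65 from stage 1 to 4. That of tub-2 was -0.075 from stage 1 to 2, 0.29 from stage 2 to 3, -0.091 from stage 3 to 4 and 0.079 from stage 1 to 4. For tba-1 the difference was 0.54 from stage 1 to 2, 0.18 from stage 2 to 3, -0.090 from stage 3 to 4 and 0.59 from stage 1 to 4. That of tba-2 was -0.29 from stage 1 to 2, 0.87 from stage 2 to 3, -0.17 from stage 3 to 4 and 0.36 from stage 1 to 4. For kin-1 the difference was -0.25 from stage 1 to 2, 0.68 from stage 2 to 3 and 0.35 from stage 1 to 4. That of ro-1 was 0.12 from stage 2 to 3, 0.28 from stage 3 to 4 and 0.34 from stage 1 to 4.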

How the results depend on the processing

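No paired analysis was possible because the deposited levels pool the 3 replicates of a stage, and leaving out each replicate could not be run for the same reason. A turn of sign was counted where the value was called on either scale, not always on both. Taking changes as deposited turned 16 of the 80 changes and 16 of the 40 differences between media. On BM these were, from stage 1 to 2, act (-0.011), tub-2 (-0.25), tba-1 (-0.22) and ro-1 (-0.14), from stage 2 to 3, tub-2 (0.10), ro-1 (0.16), myo-1 (0.065) and myo-5 (0.26), and from stage 3 to 4, act (-0.092), tub-2 (-0.21), tba-2 (-0.10) and myo-1 (-0.11). On MSM they were, from stage 3 to 4, tub-2 (0.14), kin-1 (0.0044), ro-1 (0.089) and myo-1 (0.11). Among the differences between media they were, from stage 1 to 2, tub-2 (0.32), tba-2 (0.11), kin-1 (0.14) and ro-1 (0.38), from stage 2 to 3, act (-0.30), tub-2 (-0.16), tba-1 (-0.27), ro-1 (-0.34), fim (-0.034) and tpm (-0.26), and from stage 3 to 4, act (0.36), tub-2 (0.36), tba-1 (0.36), tba-2 (0.27), kin-1 (0.41) and myo-1 (0.22). The counts as deposited were 1 higher and 8 lower from stage 1 to 2, 7 higher and 2 lower from stage 2 to 3 and 2 higher and 8 lower from stage 3 to 4 on BM, and 9 higher and 0 lower from stage 3 to 4 on MSM. Of all genes, 8.1, 56.6, 10.9 and 29.1% were then higher and 61.2, 18.8, 56.7 and 48.6% lower in the 3 steps and the whole course on BM, and 37.4, 32.1, 44.0 and 44.9% and 35.1, 34.2, 25.6 and 37.3% on MSM. For the differences between media 55.2, 16.6, 55.2 and 51.1% were higher on MSM and 15.7, 54.6, 15.6 and 24.6% lower. Calls gained as deposited on MSM were those of tba-2 from stage 2 to 3 (-0.063), tba-2 from stage 3 to 4 (0.17), tub-2 from stage 1 to 4 (0.15) and ro-1 from stage 1 to 4 (0.15). With the SE multiplied by 3, 11 changes and 6 differences were no longer called, and the genes called lower came to 1 from stage 3 to 4 on BM, and to 0 and 1 in the last 2 steps on MSM, where 12.3%, 19.1% and 21.6% of all genes were lower. Of all genes 31.0, 44.3, 28.0 and 56.1% were then called in either direction on BM. On MSM the shares were 48.7, 41.5, 42.1 and 65.0%, and between media 38.1, 37.9, 31.0 and 53.3%. With a change of at least 2-fold asked for as well, the counts were, on BM 0 higher and 0 lower from stage 1 to 2, 0 higher and 0 lower from stage 2 to 3, 0 higher and 0 lower from stage 3 to 4, 1 higher and 0 lower from stage 1 to 4, and, on MSM 2 higher and 0 lower from stage 1 to 2, 1 higher and 0 lower from stage 2 to 3, 0 higher and 0 lower from stage 3 to 4, 5 higher and 0 lower from stage 1 to 4, and the genes that differed between media were 1, 0, 0 and 3 in the same order. Of all genes 9.3, 17.6, 4.8 and 33.2% were called by that rule in either direction on BM, 20.3, 10.9, 13.6 and 47.8% on MSM and 18.8, 16.2, 14.1 and 39.4% between media. With 0.1 in log2 added to the SE, the counts were, on BM 1 higher and 0 lower from stage 1 to 2, 2 higher and 2 lower from stage 2 to 3, 1 higher and 0 lower from stage 3 to 4, 4 higher and 2 lower from stage 1 to 4, and, on MSM 4 higher and 0 lower from stage 1 to 2, 3 higher and 0 lower from stage 2 to 3, 0 higher and 0 lower from stage 3 to 4, 6 higher and 1 lower from stage 1 to 4, and the genes that differed between media were 2, 2, 0 and 5 in the same order. Of all genes 21.9, 38.6, 15.0 and 54.5% were called by that rule in either direction on BM, 41.8, 30.0, 31.7 and 65.4% on MSM and 28.0, 26.9, 21.4 and 49.5% between media. Benjamini-Hochberg adjustment added 4 changes and 1 difference. Of all genes 78.2, 84.4, 77.7 and 88.5% were then called on BM. On MSM the shares were 85.5, 81.2, 82.2 and 90.6%, and between media 82.1, 81.5, 79.2 and 86.8%. With only genes of an SE under 0.25, tub-2 from stage 1 to 4 on MSM turned to -0.020 and was called lower. By that rule 1 further change gained a call. The median of genes usable at all stages changed no direction or call. The depth of the libraries and the spread among replicates were not analysed here.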

Other observations

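Of 10 symbols of other kinesins and tubulins kin-3 and nkin-2 were found and kept. From stage 1 to 4 kin-3 was at 0.20 ± 0.046 on BM, not called, and 0.95 ± 0.036 on MSM, and nkin-2 at 0.11 ± 0.022 on BM, which is -0.19 as deposited, and -0.091 ± 0.022 on MSM, not called.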
